A study of Bos taurus with 8 samples.

Results

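The MCM helicase and DNA replication genes described here are MCM2, MCM3, MCM4, MCM5, MCM6, MCM7, PCNA, RRM1, RRM2 and TYMS, and they were taken by gene name from the probe names of a bovine Agilent array. Of these 10 genes, 9 had a probe, 1 each, and all 9 were tested among 10208 genes. MCM2 had no probe under that name and was not analysed here. RNA of rumen epithelium, the stratified lining that absorbs fermentation acids, was measured on 8 single-colour arrays from 4 rumen-fistulated Holstein bulls, numbered as calves 21, 23, 24 and 25. Per the series text, 5 such bulls (7.4 ± 0.3 months of age, 215.2 ± 20.4 kg) entered a cross-over without wash-out, with 14 days on each diet. The control group received a high-grain diet with corn flakes. In the WP group, wood kraft pulp, a cellulose-rich fibre, took the place of 50% of those corn flakes, so both groups were on a high-grain challenge. Each calf gave 1 array per diet, no group lacked grain, and which diet came first was not analysed here.

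MCM2 to MCM7 form a ring of 6 different subunits that is loaded on DNA before S phase and then, once activated, unwinds it at the replication fork. PCNA is the sliding clamp that holds DNA polymerases on their template. RRM1 and RRM2 are the large and small subunits of ribonucleotide reductase, which makes deoxyribonucleotides, and TYMS, thymidylate synthase, makes the thymidine nucleotide. In stratified epithelia these genes are known as marks of dividing cells, which lie in the basal layers, and many of them are targets of E2F transcription factors. In whole epithelium, fewer dividing cells and less of these RNAs per cell cannot be told apart.

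The probes differ in what they can show, so those on which the reading turns are given first, 5′ to 3′, as the array design holds them. The MCM5 probe lies on chromosome 5, 74001438 to 74001821 of UMD 3.1, a stretch of 384 bases for a 60-base probe, as for a probe across a splice junction. Its 15 capitals mark the codons for the core of the Walker B motif, an ATPase motif shared by MCM proteins. The MCM6 probe lies on chromosome 2, 61852197 to 61852256, on the plus strand, and starts at base 2171 of its transcript. The RRM2 probe lies on chromosome 11, 87468694 to 87468753, on the minus strand, and starts at base 994. Only the first 30 bases of the MCM3 probe are shown, because its transcript identity is in doubt.
MCM5: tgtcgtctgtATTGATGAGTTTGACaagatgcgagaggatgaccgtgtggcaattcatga
MCM6: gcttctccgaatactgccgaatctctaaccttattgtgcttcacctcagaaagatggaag
RRM2: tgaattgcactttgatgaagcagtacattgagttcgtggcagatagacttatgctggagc
MCM3, first 30 bases: gaataagggacgaacaggtatgttcctttc

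The probe that the design names MCM3 carries an accession whose description is chromosome 14 open reading frame 44 (C14orf44), not MCM3, and that accession had no match in RefSeq's gene table (assembly ARS-UCD2.0). In that table C14orf44 is an older name of ZNF410, on chromosome 10. The probe's own position, chromosome 23, 24447733 to 24447792 on the minus strand of UMD 3.1, falls between the probes of IL17F and PAQR8. In the RefSeq table MCM3 is the named protein-coding gene between IL17F and PAQR8, so the position and the accession name different genes. The gene is called MCM3 here as the design calls it, and the main results over the group are also given without it. The remaining probes lie on chromosome 14, 21192547 to 21192606 (MCM4), chromosome 25, 36893250 to 36893309 (MCM7), chromosome 13, 47789375 to 47789434 (PCNA), chromosome 15, 51801765 to 51801824 (RRM1), and chromosome 24, 35945683 to 35945742 (TYMS). The accessions of the 8 probes other than that of MCM3 matched the RefSeq gene of the same name. Which exon or UTR holds each probe was not analysed here.

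A level below is log2 of the processed signal minus the 75th percentile of its array, so 0 is a signal at that percentile. Probes are not ranked by level. The 9 probes were well above background on 8 of 8 arrays. The WP array of calf 24 stood apart: its negative control spots had a median signal of 4.06, against at most 1.90 on the others, and its spots for the viral E1A control read 40.7 against 1.36 to 1.97. The 13 basal keratinocyte markers, KRT5, KRT14 and TP63 among them, were all well above background on 8 arrays. All arrays were on 1 slide, in 2 rows: row 1 held the WP arrays of calves 21 and 23 and the control arrays of calves 24 and 25, and row 2 held the others.

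All 9 genes had a lower mean on the WP diet, by log2 differences of -0.60 to -0.13, and no gene passed an adjusted p of 0.05. A negative difference was found for 35.6% of all 10236 probes tested, whose median difference was 0.09. That share depends on the scaling: the median of all probes was -0.02 with quantile and -0.004 with cyclic loess scaling, so more probes were negative there. The median of the 9 genes was then -0.26 and -0.28. In the main fit the median of the 9 genes was -0.29, and -0.28 without MCM3. By limma with calf as a block, 0 of 9 genes and 0% of all probes passed an adjusted p of 0.05. At an unadjusted p under 0.05, 1 of 9 genes, MCM3, was lower on WP against 1.75% of all probes, and 0 of 9 were higher against 5.24%. The count of 1 became 3 with normexp background correction, quantile or cyclic loess scaling, a trended variance prior, or slide row 1 alone. Probes lower on WP rose as well under these settings, to 293, 336, 411, 267 and 256, against 179 in the main fit. Leaving out calf 24 gave 2 genes, with 165 probes lower. A filter for probes well above background on all 8 arrays also gave 2, with 203 probes lower. The count fell to 0 when calf 21 was left out (69 probes lower) and in slide row 2 alone (109 probes lower). MCM3, MCM4 and MCM6 were lower on WP in 4 of 4 calves, as were 5.39% of all probes.

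**Figure D1:**
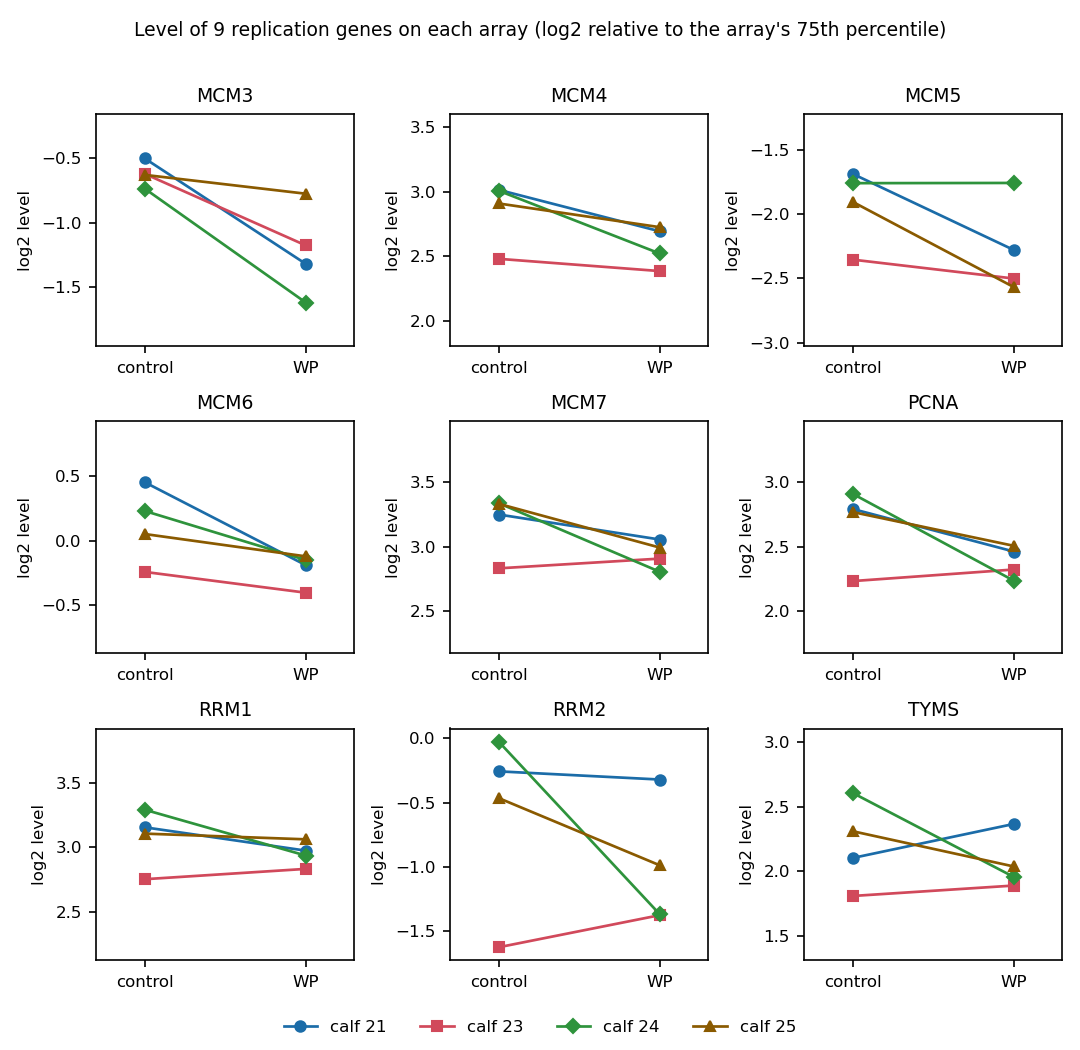
Each panel shows 1 gene, with the log2 level relative to the array's 75th percentile on the y axis (every panel spans the same number of log2 units) and the diet on the x axis; a line joins the control and WP arrays of 1 calf. The highest point of all 9 panels is a control array, and calf 23 starts lowest on the control diet in 8 of 9.

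Of the helicase subunits, MCM4 read 3.02, 2.48, 3.01 and 2.91 on the control arrays of calves 21, 23, 24 and 25, and 2.69, 2.38, 2.52 and 2.73 on their WP arrays. The control array of calf 23 was the low one, and it lay within the range of the WP arrays, so the diets overlapped. The difference was -0.27 ± 0.17 (SD, n = 4), or 1.21-fold higher signal under control feeding (limma adjusted p = 0.658, 95% interval -0.59 to 0.05). MCM6 gave 0.45, -0.24, 0.23 and 0.05 on control and -0.19, -0.40, -0.15 and -0.12 on WP. Here too 3 control arrays lay above every WP array and that of calf 23 below most of them. Its difference was -0.34 ± 0.23 (SD, n = 4; limma adjusted p = 0.658, 95% interval -0.69 to 0.01).

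MCM7 read 3.25, 2.83, 3.34 and 3.33 on the control arrays and 3.06, 2.91, 2.81 and 2.99 on the WP arrays of the same calves. It was lower on WP in 3 calves and higher by 0.08 in calf 23, with a mean difference of -0.25 ± 0.26 (SD, n = 4; limma adjusted p = 0.664). MCM5, a dim probe with a processed signal as low as 35.6, gave -1.69, -2.35, -1.76 and -1.91 on control and -2.28, -2.50, -1.76 and -2.57 on WP. Its difference was -0.35 ± 0.33 (SD, n = 4; limma adjusted p = 0.658). MCM5 differed by 0.0017 between the diets in calf 24, the one with the deviating WP array, and without that calf the difference was -0.47. With normexp background correction it was -0.07.

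MCM3 was the 1 gene of the 9 whose diets did not overlap. Its levels were -0.50, -0.62, -0.73 and -0.63 on control and -1.32, -1.17, -1.62 and -0.77 on WP, so every WP array was below every control array. Of all probes tested, 1.19% were lower on WP with no overlap. The control arrays of MCM3 spanned a narrow range and calf 23 was not low among them. The difference was -0.60 ± 0.33 (SD, n = 4), or 1.52-fold higher signal under control feeding (limma adjusted p = 0.658, 95% interval -1.02 to -0.18). It was -0.34 with normexp background correction, and -0.51 without calf 24.

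PCNA, the clamp, read 2.79, 2.23, 2.91 and 2.77 on control and 2.46, 2.32, 2.24 and 2.51 on WP. The control array of calf 23 was the lowest of the 8 and the control array of calf 24 the highest. The difference was -0.29 ± 0.31 (SD, n = 4; limma adjusted p = 0.659), and -0.17 without calf 24.

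Of the nucleotide enzymes, RRM1 read 3.16, 2.75, 3.29 and 3.11 on control and 2.97, 2.83, 2.94 and 3.06 on WP, a difference of -0.13 ± 0.19 (SD, n = 4; limma adjusted p = 0.752). All WP arrays of RRM1 fell inside the range of its control arrays. RRM2 had the widest range of the 9 genes, 1.60 log2 units over the arrays. It gave -0.26, -1.62, -0.03 and -0.46 on control and -0.32, -1.37, -1.37 and -0.99 on WP. Calf 23 was low on both diets, and calf 24 went from the highest control value to a low WP value, a within-calf difference of -1.34 against -0.06, 0.25 and -0.52 in calves 21, 23 and 25. The mean, -0.42 ± 0.69 (SD, n = 4; limma adjusted p = 0.676), was -0.11 without calf 24.

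TYMS was lower on WP in 2 of 4 calves. It read 2.10, 1.81, 2.61 and 2.31 on control and 2.37, 1.89, 1.95 and 2.04 on WP, so WP was higher by 0.26 and 0.08 in calves 21 and 23 and lower in calves 24 and 25. The difference was -0.15 ± 0.40 (SD, n = 4; limma adjusted p = 0.80), and it turned to 0.02 without calf 24. In both slide rows the WP and control arrays come from different calves. Calf 23 is on the WP side in row 1 and on the control side in row 2, so these differences mix diet with calf. Within row 2 TYMS gave 0.04 and RRM1 0.05, against -0.33 and -0.30 within row 1. The other 7 genes were negative within both rows, from -0.60 to -0.35 in row 1 and from -0.64 to -0.12 in row 2.

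**Figure D2:**
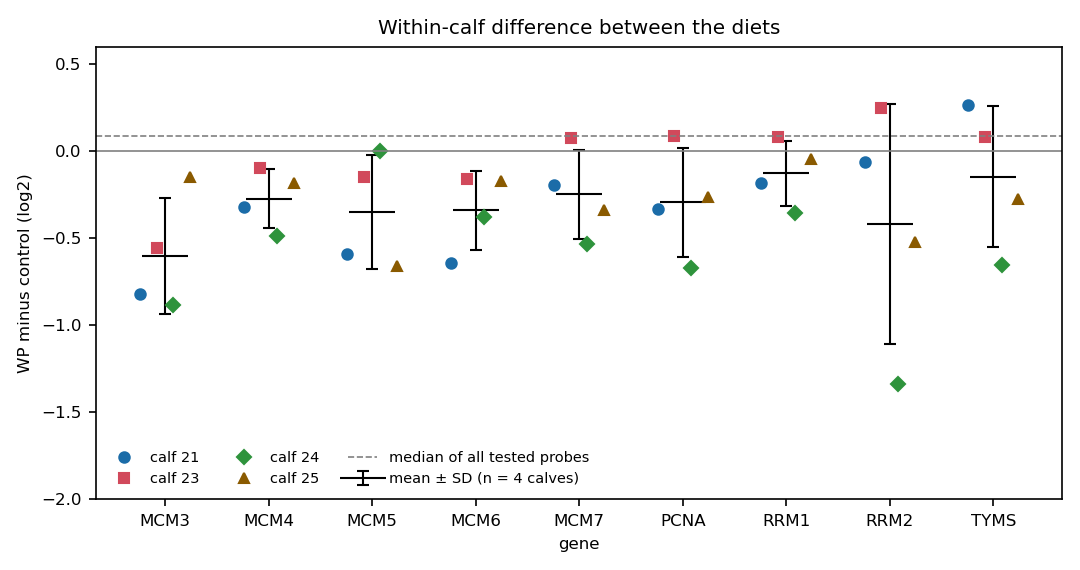
The y axis gives the WP minus control difference in log2 units for each gene on the x axis, with 1 coloured point per calf and a black bar for the mean ± SD of 4 calves; the dashed line is the median of all tested probes, 0.09. Calf 24 has the most negative point in 7 of 9 genes, and calf 23 lies above 0 in 5.

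By calf, calves 21, 23, 24 and 25 had median differences over the 9 genes of -0.32, 0.08, -0.53 and -0.26, with 8, 4, 8 and 9 genes lower on WP. Without MCM3 the medians were -0.26, 0.08, -0.51 and -0.27. The median of all probes in the same calves was 0.12, 0.03, 0.14 and -0.00024. The 5 MCM subunits had medians of -0.59, -0.15, -0.49 and -0.18 in calves 21, 23, 24 and 25, below 0 in each, and without MCM3 -0.46, -0.12, -0.43 and -0.26. PCNA, RRM1, RRM2 and TYMS had -0.12, 0.09, -0.66 and -0.27. In calf 23, 4 of 5 MCM subunits were lower on WP and 0 of the 4 others. Whether the subunits and the others differed was not tested. Without calf 24, whose WP array stood apart, the median of the 9 genes was -0.17, and without the other calves it ran from -0.40 to -0.27.

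Between arrays, 7 of the 9 genes varied together, and MCM3 and MCM5 were less like them. The 8 arrays come from 4 calves and share 1 scaling each, so the correlations that follow are descriptions. Over the 8 arrays the 36 pairs of genes had a median Pearson r of 0.77 and a median Spearman rho of 0.77, against a median r of 0.04 over all pairs of 10166 genes. An r of at least 0.75 was found in 58.3% of these pairs and in 4.09% of all pairs. Without MCM3 the median r was 0.82, and 21 of 28 pairs reached 0.75. PCNA and MCM7 were the closest pair (r = 0.98), followed by PCNA and MCM4 (r = 0.96). MCM3 had r from 0.08, with MCM5, to 0.60, with PCNA. MCM5 was closest to MCM6 (r = 0.77).

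Against the mean of the other 8 genes, MCM4 had an r of 0.98 (rho = 0.95), PCNA 0.97 (rho = 0.90) and MCM7 0.95 (rho = 0.88). RRM1 gave 0.91 (rho = 0.95), MCM6 0.88 (rho = 0.90), RRM2 0.87 (rho = 0.90) and TYMS 0.76 (rho = 0.88). MCM5 gave 0.56 (rho = 0.38) and MCM3 0.42 (rho = 0.29). Without the 2 arrays farthest from the median of that mean, MCM3 had 0.14 and MCM5 0.15, while the others stayed between 0.75 and 0.97. Without the control arrays of calves 21 and 24, the highest of the 8 by the mean of the 9 genes, the median r over pairs was 0.72. With the diet means removed it was 0.74, and without MCM3 0.82. Within 4 arrays of 1 diet it was 0.89 on control and 0.47 on WP.

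**Figure D3:**
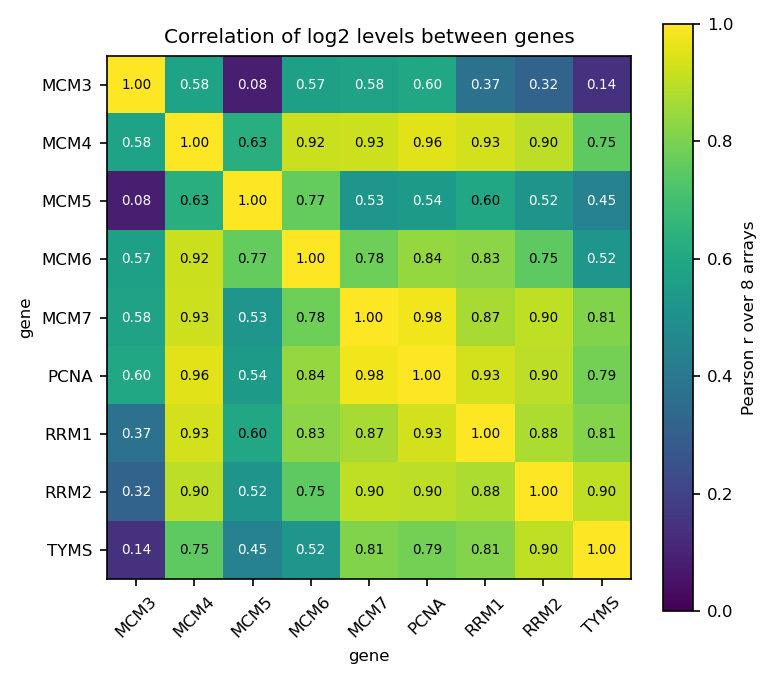
Genes are on both axes, and each cell gives the Pearson r of the log2 levels of a pair over 8 arrays, on a colour scale from 0 to 1. MCM4, MCM6, MCM7, PCNA, RRM1, RRM2 and TYMS form a block with r from 0.52 to 0.98, and the rows of MCM3 and MCM5 are darker.

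Centred by gene and averaged over the 9 genes, the arrays ranked from the control array of calf 24 (0.36), over those of calves 21 (0.30) and 25 (0.21), to the WP arrays of calves 21 (-0.02), 25 (-0.08) and 24 (-0.23), the control array of calf 23 (-0.26) and the WP array of calf 23 (-0.30). Both arrays of calf 23 were thus the lowest, also without MCM3 (-0.33 on control and -0.31 on WP). Its mean over both diets was the lowest of the calves for 8 of 9 genes, with RRM2 at -1.50 against -0.73 to -0.29 in the others. MCM3 was the exception, with calf 24 lowest.

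Calf took a median of 44.4% of the sum of squares of the 9 genes over the arrays, diet 35.1% and slide row 5.14%. Without MCM3 these medians were 49.2%, 30.9% and 8.70%. Over all tested probes the medians were 40.0%, 12.5% and 11.9%. Calf has more levels than diet or slide row, so it takes a larger share even of unstructured variation. The shares of calf and diet are thus not on an equal footing, and each is to be read beside its median over all probes. Diet took more than calf in 2 of the 9 genes, MCM3 (64.5% against 20.4%) and MCM7 (36.9% against 33.4%). RRM1, RRM2 and TYMS had the smallest diet shares, 14.5%, 13.5% and 8.13%. For TYMS the slide row took 38.9%, with row 1 higher by 0.32 log2 units. Each calf had 1 array in each row, and whether the row coincided with the feeding period was not tested. Without calf 23 the median share of calf was 4.39% and that of diet 67.7%, and without calf 24 they were 64.4% and 18.4%.

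**Figure D4:**
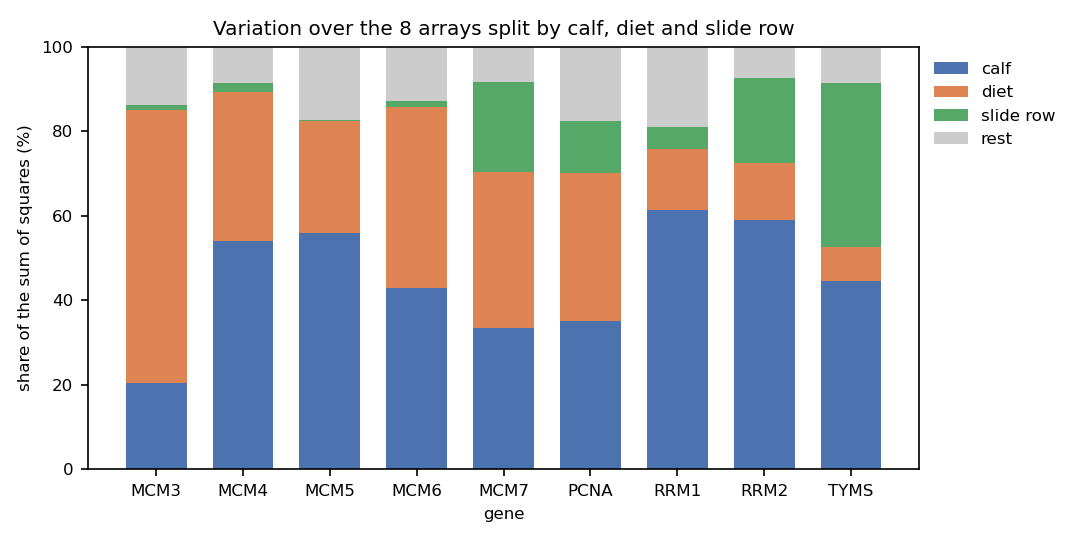
Stacked bars give, for each gene on the x axis, the percentage of the sum of squares over the 8 arrays taken by calf, diet, slide row and the rest. The diet part is largest in MCM3 (64.5%) and smallest in TYMS (8.13%).

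The wider replication machinery had differences on both sides of 0. Of 128 tested genes in the 7 lists of licensing, fork, polymerase, clamp, nucleotide, chromatin and G1 to S control genes, 70 had negative and 58 positive differences, with a median of -0.03. Over all tested genes 35.6% were negative, with a median of 0.09. No gene of these lists passed an adjusted p of 0.05 in limma, and at an unadjusted p under 0.05 there were 3 lower (2.34%) and 5 higher (3.91%), against 1.73% and 5.24% of all tested genes. No test of a list was made, since the genes were chosen with earlier results of these data known. Of the 32 list genes named below, 17 moved by over 1.5 times with normexp background correction and 19 with quantile scaling, and 4 and 6 changed sign. Lower in 4 of 4 calves were ORC1, POLA2, POLD3, DNA2, TK1, HELLS, DNMT1, MYBL2 and RACGAP1. Higher in 4 of 4 were ORC5, ORC3, TIPIN, PRIMPOL, LIG1, ATAD5, ATAD2, CHAF1A, TFDP2 and FOXM1. The named genes were picked by smallest p in each direction, which favours the same sign in every calf.

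Origin licensing genes, which load the helicase ring, had 5 of 11 members below 0 and a median of 0.06. ORC1, the largest subunit of the origin recognition complex, gave -0.35 ± 0.19 and was lower in 4 of 4 calves, or -0.11 with normexp, and GMNN, the licensing inhibitor geminin, gave -0.25 ± 0.37. ORC5 (0.49 ± 0.65) and ORC3 (0.58 ± 0.85), further origin recognition subunits, had the opposite sign, and most of both values came from calf 24, at 1.44 and 1.86. With quantile scaling they were 0.27 and 0.20. In the helicase activation and fork list 7 of 16 were negative, with a median of 0.02. GINS2, a subunit of the active helicase, gave -0.31 ± 0.30, or -0.14 with normexp, and TIPIN, a fork protection factor, 0.33 ± 0.27 (SD, n = 4), though TIPIN turned to -0.17 with quantile scaling. DBF4, which activates the kinase CDC7, gave -0.48 ± 0.82 and 0.02 with normexp background correction. MCM9, a helicase relative used in repair, gave 0.16 ± 0.12 and -0.44 with quantile scaling.

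Among polymerases and primase 8 of 12 were negative, with a median of -0.09. POLA2, a subunit of the polymerase that starts new strands, was lower in 4 of 4 calves (-0.41 ± 0.10; limma adjusted p = 0.658), and -0.02 with normexp background correction. POLD3, a subunit of DNA polymerase delta, gave -0.49 ± 0.28 and 0.04 with that correction. PRIMPOL, which restarts stalled forks, gave 0.24 ± 0.11 and PRIM1, the primase, 0.31 ± 0.49 (SD, n = 4), or 0.03 with quantile scaling. The clamp loading and strand joining list had 11 of 18 below 0 and a median of -0.09. FEN1, the flap nuclease of lagging strand synthesis, gave -0.21 ± 0.21, and DNA2, above background on 5 of 8 arrays, -0.48 ± 0.69, or 0.11 with normexp. LIG1, the ligase that joins the fragments, went the other way in 4 of 4 calves (0.77 ± 0.53; limma adjusted p = 0.658), as did ATAD5, which unloads PCNA (0.76 ± 0.74). LIG1 was 0.43 with normexp, and ATAD5 0.33 with normexp and 0.15 with quantile scaling. Calf 24 had the largest difference of both, 1.41 and 1.79, against at most 0.88 and 0.80 in the other calves. Of all 10208 tested genes, 6577 had a positive mean difference, and the share higher in 4 of 4 calves was not counted.

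Nucleotide supply genes had 17 of 28 below 0, with a median of -0.06. DTYMK, the kinase that acts after TYMS, gave -0.35 ± 0.25, and TK1, thymidine kinase, -0.35 ± 0.27 (SD, n = 4). Their limma adjusted p was 0.658 each. PPAT, of purine synthesis, gave 0.18 ± 0.17, or 0.0067 with quantile scaling, and IMPDH1 0.21 ± 0.58, or -0.40 with quantile scaling. In the chromatin list 9 of 15 were negative, with a median of -0.02. HELLS, a chromatin remodeller, gave -0.20 ± 0.04 and DNMT1, the maintenance DNA methyltransferase, -0.22 ± 0.15, both lower in 4 of 4 calves. With normexp HELLS was -0.10. CHAF1A, a histone chaperone above background on 5 arrays, gave 0.78 ± 0.68, with 1.79 in calf 24, or 0.34 with quantile scaling. ATAD2 gave 0.36 ± 0.16, or -0.13 with quantile scaling.

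The G1 to S list, which holds the E2F factors, cyclins and their inhibitors, had 13 of 28 below 0 and a median of 0.01. MYBL2, a transcription factor of dividing cells, gave -0.25 ± 0.27, and CDKN1A, the cell cycle inhibitor p21, -0.20 ± 0.21. With normexp they were -0.06 and -0.08. TFDP2, a partner of E2F, gave 0.38 ± 0.20, and LIN9 0.57 ± 0.42, or -0.21 with quantile scaling. In the mitosis and spindle list 31 of 38 were negative, with a median of -0.21. By calf its medians were 0.22, 0.32, -0.94 and -0.39 in calves 21, 23, 24 and 25, so its sign changed between calves. RACGAP1, of cytokinesis, gave -0.38 ± 0.06 and 0.02 with normexp background correction, and MAD2L1, of the spindle checkpoint, -0.34 ± 0.50. KIF4A gave 0.72 ± 1.06, with 2.02 in calf 24, or 0.29 with quantile scaling. FOXM1 gave 0.18 ± 0.11, or -0.46 with quantile scaling. MKI67 and TOP2A had no probe under those names.

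**Figure D5:**
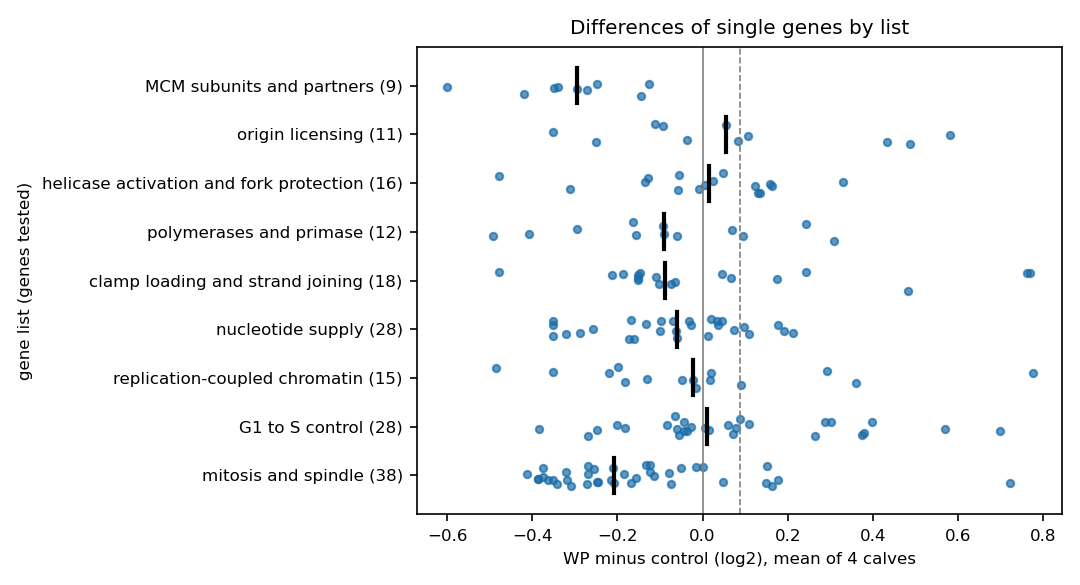
Each point is the mean WP minus control difference of 1 gene in log2 units, grouped by list on the y axis with the number of tested genes; black bars are list medians and the dashed line is the median of all tested genes, 0.09. The 9 points of the top row all lie below 0, and the rows from origin licensing to G1 to S control lie on both sides of it.

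Genes whose levels over the 8 arrays were most like the mean of the 9 were named by rank of Pearson r. DTYMK came first (r = 0.97, rho = 0.95). Next were ZNRD2 (r = 0.96), NCBP2, of the nuclear cap binding complex (r = 0.95), and LMNA, the nuclear lamina protein lamin A/C (r = 0.95). TNFRSF12A (r = 0.95), PKMYT1, a kinase that holds cells before mitosis (r = 0.94), and UBE2S, of the anaphase promoting pathway (r = 0.94), were also among the closest. The r of these genes without the control arrays of calves 21 and 24 ran from 0.83 to 0.995. Of 10166 genes, 31 (0.305%) had r of at least 0.9, and 23 had r of -0.9 or lower. The 10166 include the 9 genes themselves, each of which is part of the mean. MCM4, PCNA, MCM7 and RRM1 are thus among the 31, since each had r of at least 0.91 with the mean of the others alone. FEN1, with r of 0.92, was among the replication genes closest to the pattern, and LIG1 had r of -0.55. Of the list means, mitosis and spindle had r of 0.79 (rho = 0.81) with the mean of the 9 genes. Nucleotide supply had 0.77 (rho = 0.83) and the chromatin list 0.70 (rho = 0.67), so the pattern over arrays was not particular to the 9 genes. The other replication and G1 to S lists ran from 0.16 (origin licensing) to 0.56 (helicase activation and fork).

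Markers of the layers and of other cell types were set beside the mean of the 9 genes. The suprabasal and cornified list, 10 of 19 tested, had 9 negative differences and a median of -0.85, with a summed level of 438.0 to 549.1 on control and 258.1 to 420.8 on WP. Its mean correlated with that of the 9 genes at r = 0.67 over the 8 arrays. In calves 21, 23, 24 and 25 the medians of this list were -1.32, -0.32, -0.86 and -0.0017, so calf 25 had almost no difference. The basal keratinocyte list had 3 of 13 negative, a median of 0.25, a summed level of 210.8 to 308.4 on control and 214.5 to 354.7 on WP, and r = -0.30. Its medians in calves 21, 23, 24 and 25 were 0.74, 0.36, -0.14 and -0.26. Fibroblast markers, 11 of 12 tested, had a median of 0.61 with 1 negative, a summed level of 10.1 to 40.4 on control and 18.6 to 44.5 on WP, and r = -0.05. By calf the fibroblast medians were -0.63, 0.63, 0.96 and 1.34, so calf 21 had the opposite sign. Endothelium (10 of 11 tested) had a median of 0.41, summed levels of 4.17 to 7.51 and 5.43 to 10.02, and r = -0.02, with calf medians of -0.34, 1.61, 0.12 and 0.48. Smooth muscle (6 of 9 tested) had a median of 0.42, summed levels of 18.9 to 27.5 and 25.1 to 31.1, and r = -0.50.

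The leukocyte lists also differed in sign between calves, apart from the B and plasma cell list. Macrophage and dendritic cell markers (10 of 14 tested) had a median of 0.0014, with summed levels of 5.04 to 14.3 on control and 5.26 to 10.3 on WP, and r = 0.06. Its medians by calf were -1.20, -0.02, 0.76 and 0.65. T and NK cell markers (8 of 15) gave a median of -0.14, 1.12 to 2.73 on control, 1.23 to 2.34 on WP, and r = 0.14, with calf medians of -0.91, -0.06, 0.82 and 0.20. B and plasma cell markers (6 of 11) gave a median of -0.27, 3.57 to 5.56 on control, 3.12 to 3.37 on WP, and r = 0.51. The part of these cell types in the values of the 9 genes was not tested.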

How the data were processed

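The deposited scanner files hold spot intensity from a single Cy3 channel, labelled from 500 ng of total RNA per the labels' protocols. The authors' processed signal was background-corrected by Agilent Feature Extraction, for which the file headers name version 11.0.1.1 and the submitters' processing notes 9.5. Values in the authors' deposited table are log2 and matched log2 processed signal minus a constant per array (slopes of 0.99998 to 1, medians from -3.07 to -2.26), so its scale and direction are known and its genes were not centred.

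Outlier-flagged spots (97) and control spots (536) were dropped, spots of 1 probe were averaged as log2 values, and each array's 75th percentile was subtracted. No spot was saturated, and the number of arrays limits the precision. Of 15008 probes, the 10236 well above background on 4 or more arrays were tested with limma 3.58.1 (R 4.3.3; lmFit, eBayes, two-sided). Calf was a block because each animal received both diets. The pairing thus comes from the labels. Deviations of a calf's 2 arrays from their group means correlated weakly over probes (r from 0.009 in calf 21 to 0.20 in calf 23). Between a WP and a control array of different calves r ran from -0.27 to 0.26, so the same-calf pairs did not stand apart. Adjusted p-values are Benjamini-Hochberg values across the tested probes. With 4 calves the smallest exact p of a sign-flip test is 0.125. SDs are over the 4 within-calf differences. The p-values rest on the spread of those differences, moderated towards the variance of all tested probes, and cover no spread beyond these samples. The fit was also run on simulated data with noise drawn independently for each probe. That run does not cover probes that vary together, as those of these genes do.

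Other genes were named by a rule: the 2 of smallest p in each direction per replication list, and the 8 most correlated with the mean of the 9 genes, of which 1 is not reported here. FEN1 and LIG1 in the sentence on likeness were chosen after their values were seen. The genes and lists were chosen with earlier results of these data known. Probes were named from the array design and from RefSeq accessions (ARS-UCD2.0, used for names and neighbouring genes). Alternatives covered background correction, scaling, filter, block, slide row, prior and each calf left out.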

Additional observations from a re-analysis of the deposited data

Results flagged for a closer look

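Array control probes for viral E1A, which belong to no comparison, had a median processed signal of 40.7 on the WP array of calf 24, against 1.36 to 1.97 on the other arrays. No value of the 9 genes stood out from the other 3 of its group by Dixon's criterion, over 27 groups of 4 values (control levels, WP levels and within-calf differences).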

How the results depend on the processing

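Over 16 alternatives the median difference of the 9 genes ran from -0.44 to -0.14 and stayed negative, and MCM3, MCM4, MCM5, MCM6, MCM7, PCNA and RRM2 were negative in 16 of 16. Several of the 16 could not change a sign by themselves. The other filters, blocks and prior refit the same levels, so each difference was the same by construction. The authors' values and the other percentile shift all genes of an array alike. Background correction, other scalings, single slide rows and left-out calves could move single genes. RRM1 (0.045) and TYMS (0.041) turned positive within slide row 2, and TYMS ran from -0.28 to 0.024 with a calf left out, the positive value being that without calf 24. No alternative gave a probe past an adjusted p of 0.05, and the counts of probes at an unadjusted p under 0.05, 715 here, were 1427 with normexp background correction, 464 within slide row 2 and 429 to 935 with a calf left out. Without the replicate block the differences were the same, with MCM3 at -0.60 and 785 probes at an unadjusted p under 0.05, and the block changed no call. The smallest and largest adjusted p of MCM3 over the alternatives were 0.346 and 0.938. Quantile scaling moved the median of all probes from 0.09 to -0.02 and the probes at an unadjusted p under 0.05 from 179 lower and 536 higher to 336 and 192. Cyclic loess scaling gave 411 lower and 263 higher. With a calf left out, the share taken by calf ran from 4.39% to 64.4% and that taken by diet from 18.4% to 67.7%, and the median correlation between the genes from 0.74 to 0.90. Each gene had 1 probe, so averaging probes gave no other value. Of the 9 genes, normexp background correction moved MCM3 (-0.34) and MCM5 (-0.07) by more than 1.5 times, and their processed signals were as low as 79.8 and 35.6. RRM2, with a signal as low as 77.8, moved by less, to -0.29, so low signal alone did not set those genes apart.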
